A study of Mus musculus with 2 samples.

Results

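The cells described here are the deeply sequenced melanoma barcodes of 2 droplet libraries of mouse tumors, 332 of 13817 deposited barcodes. B16F10, a pigmented melanoma line of C57BL/6 origin, had been grown under the skin of C57BL/6 hosts and taken at day 14. Live CD45-positive cells had then been sorted from the tumors. The control hosts were Usp18f/f, which carry a Usp18 gene flanked by recombination sites. The other hosts, labelled as a myeloid-specific Usp18 knockout, were Usp18f/f LysM-Cre, in which Cre is driven from the lysozyme locus in myeloid cells. Both groups therefore shared the floxed allele, and the injected melanoma cells carried neither host allele. Each group was 1 library made from 4 pooled tumors, so no difference between the hosts has a replicate check and no test between them is possible. Host age and sex are not given in the sources used here.

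A barcode was a member when it had at least 200 genes, at most 10% mitochondrial UMIs (unique molecular identifiers, which count captured transcripts) and at least 5000 UMIs, of which at least 0.1% came from Mlana, Pmel, Tyrp1 and Dct. It also had to hold under 0.2% of UMIs from C1qa, C1qb and C1qc, at most 1 UMI of the CD3 genes and at most 1 of Cd79a and Cd79b. The members were thus chosen by measured transcripts and depth. The rule selected 147 of 7086 kept barcodes (2.07%, exact 95% interval 1.76 to 2.43) in the control library and 185 of 5729 (3.23%, 2.79 to 3.72) in the knockout-labelled library. All intervals here cover counting error only. These few barcodes held 19.95% and 21.06% of the UMIs of the kept barcodes. The sort for CD45 acts on how many melanoma cells entered each pool, so the shares describe the libraries and not the tumors. A further 35 and 237 barcodes passed the pigment rule with under 5000 UMIs, and 34 and 25 failed on mitochondrial share alone. The libraries had 8 barcode sequences in common, 1 of them a member in one library.

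Melanocytes and the melanomas that arise from them make melanin in melanosomes, lysosome-related organelles. Tyr carries out the first step of melanin synthesis, Tyrp1 and Dct act after it, and Pmel builds the fibrils on which the pigment is laid down. Mitf, a basic helix-loop-helix leucine-zipper factor, switches on many of these genes and is itself switched on by Sox10 and Pax3. MITF binds the M-box, whose core letters TCATGTG were searched on both strands in windows from 250 bases before to 50 bases after each RefSeq gene start (GRCm38.p6). Of 30 pigment and lineage genes, 21 had a window. Of their 27 windows, 7 held these letters, compared with 3.77% of 32851 windows of the same length. The 7 windows were those of Dct, Tyr, Tyrp1, Trpm1, Mc1r, Slc24a5 and Tspan10. The shorter CATGTG, which lies inside the motif, was searched separately and was present in 14.2% of all windows. Among the listed genes, the Oca2 window and another Trpm1 window held it without the full motif. A match is a description of the sequence and shows no binding. The stretches of 3 melanin enzymes are printed because their transcripts define or check the cells; capitals mark the motif.
Tyr: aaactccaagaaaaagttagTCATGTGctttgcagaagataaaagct
Tyrp1: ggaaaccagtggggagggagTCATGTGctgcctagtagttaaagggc
Dct: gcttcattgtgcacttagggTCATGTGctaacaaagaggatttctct
The Tyr motif began 22 bases before the gene start, in the window chr7:87493463-87493762 on the minus strand. The Tyrp1 motif began 47 bases before the start (chr4:80833963-80834262, plus strand), and the printed Dct motif 151 bases before it (chr14:118052197-118052496, minus strand). The Dct window also held the letters on the other strand (CACATGA), further before the start and outside the printed stretch.

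The members were deep. The control members held between 5392 and 140126 UMIs with a median of 53976, and the knockout-labelled members between 5125 and 164491 with a median of 54310. The depths overlapped over their whole range, but 9 control and 34 knockout-labelled members lay under 20000 UMIs. The other barcodes with at least 5000 UMIs had medians of 8117 and 8926. The share of UMIs from the 4 genes of the rule ran from 0.195% to 2.98% in the control library (median 1.49%) and from 0.234% to 3.09% in the knockout-labelled library (median 1.48%). These shares chose the cells and are given as a description. Few barcodes lay near the pigment threshold: the nearest values outside it were 0.0842% and 0.0563%. At the depth threshold the nearest values were 5392 and 5125 UMIs inside and 4890 and 4847 outside.

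**Figure D1:**
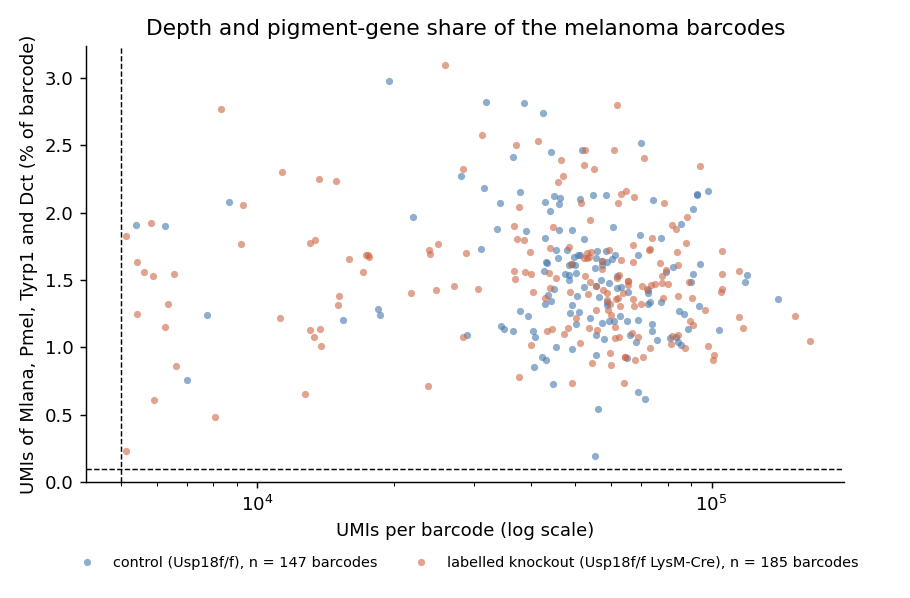
UMIs per barcode (log scale) against the share of UMIs from Mlana, Pmel, Tyrp1 and Dct, 1 point per melanoma barcode; dashed lines are the thresholds of 5000 UMIs and 0.1%. The medians are 1.49% and 1.48%, and the points under 20000 UMIs are mostly from the knockout-labelled library (34 against 9).

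Lineage genes outside the rule were present in nearly all members. At least 1 UMI of Mitf was found in 147 of 147 control and 181 of 185 knockout-labelled members, of Sox10 in 144 and 167, and of Tyr in 146 and 180. A Sox10 UMI was found in only 0.758% and 0.982% of the other barcodes with at least 5000 UMIs, and a Tyr UMI in 1.10% and 1.92%, at their lower depth. Summed over the members, Mitf stood at 458 CPM (UMIs of a gene per 1000000 UMIs of the summed cells) in control members and at 457 CPM in knockout-labelled ones. Of the 26 lineage genes, 22 were at least 2-fold higher in members than in all other kept barcodes of the same library, in both libraries. Among all genes compared, 15.8% were as much higher in the control library and 14.9% in the knockout-labelled library; since transcripts chose the members, nothing is read from that contrast. The 22 included the melanosome transporter Slc45a2 (502 and 490 CPM), the cation channel Trpm1 (510 and 430), the melanosome carrier genes Mlph (162 and 160) and Rab38 (330 and 310), the receptor Mc1r (199 and 167) and the factor Pax3 (308 and 279). Lineage genes at low levels were the endothelin receptor Ednrb (0.121 and 0.509 CPM), E-cadherin (Cdh1, 0.971 and 1.12), the anti-apoptotic Bcl2a1b (3.16 and 10.5) and the stem cell factor receptor Kit (16.6 and 10.7).

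Melanomas can also take on a dedifferentiated state with low pigment genes. Of the genes listed for it, Ngfr, Egfr, Twist1, Wnt5a, Sox2 and Tnc had 0 UMIs in both libraries, which allows a level of up to 0.364 CPM in control and 0.305 CPM in knockout-labelled members. The receptor kinase Axl was at 5.58 and 6.41 CPM. Others of the list were present, with Tead1 at 55.4 and 51.7 CPM and Cd44 at 420 and 413. Cdkn2a and Cdkn2b, which encode inhibitors of cyclin-dependent kinases, also had 0 UMIs in all 332 members, under the same limits, while other barcodes held Cdkn2a at 2.87 and 2.23 CPM.

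These barcodes came from a sort for CD45 but held little of its transcript. Ptprc, which encodes CD45, had a UMI in 34 of 147 and 43 of 185 members (23.1% and 23.2%), against 96.0% and 94.8% of other barcodes with at least 5000 UMIs. Its level was 11.5 CPM in control and 12.6 in knockout-labelled members, which is 1.25% and 1.98% of the level in all other barcodes. The fibroblast genes Col1a1 and Col3a1 and the keratinocyte genes Krt5 and Krt14 had 0 UMIs. The summed fibroblast list was at 1.70 and 1.63 CPM. Leukocyte lists were not absent: the summed pan-leukocyte list was at 534 and 574 CPM and the macrophage list at 1436 and 1622 CPM. With each barcode thinned to 5000 UMIs, 46.9% of control and 44.3% of knockout-labelled members held at least 3 pan-leukocyte UMIs. Among other barcodes with at least 5000 UMIs the shares were 99.9% and 99.8%. Members with at least 0.05% of UMIs from Tyrobp, Fcer1g, Cd52 and Coro1a, all leukocyte genes, numbered 5 in the control and 12 in the knockout-labelled library. The median ratio of the 14 macrophage genes between the libraries was 0.78 on the log2 scale over all members. It was 0.08 over the 11 genes tested in members with under 0.01% of UMIs from those leukocyte genes, 132 and 158 members. Tyrobp and Fcer1g are also in the macrophage list, so the filter itself set part of this fall. Because leukocyte transcripts differed between the libraries, list medians and genes that carry the host comparison are also given in this restricted set.

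Outside the lists, the genes standing furthest above all other barcodes by ratio included Syt4, a synaptotagmin of vesicle release (1262 and 1264 CPM against 20.5 and 33.3). Others were Serpinh1, the collagen chaperone (566 and 517 CPM), Sparc, a secreted matrix protein (310 and 291), Cited1, a transcriptional co-regulator (293 and 233), Fbln5, an elastic fibre protein (367 and 360), the transcription factor Sox11 (292 and 284), and the carbonic anhydrases Car6 (531 and 586) and Car14 (236 and 234). Within the list of chemokines and growth factors, Ptgds, a prostaglandin D2 synthase, was at 2408 and 2636 CPM against 31.8 and 86.2 in other barcodes.

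The 2 libraries differed little in these cells. Ratios are log2 of (CPM + 5) in the knockout-labelled library over (CPM + 5) in the control library, which understates the change of low genes. Of 11567 genes with at least 20 UMIs over both, 43 (0.372%) differed at least 2-fold, 36 higher (0.311%) and 7 lower (0.0605%) in the knockout-labelled library. The median of all genes was -0.03, with 43.5% of genes above 0 and 56.5% below it, and the middle 90% of genes lay between -0.29 and 0.27. The 24 lineage genes tested had a median of -0.04, and 0 of them passed 2-fold. In the restricted set their median was -0.06, with 9 of 23 above 0, against 42.3% of all genes there, and 0 past 2-fold. The 4 rule genes stayed within 0.21 of 0: Pmel was 3125 CPM in control and 3620 in knockout-labelled members, and Dct 7568 and 6739. Over single cells Dct ran from 793 to 15190 CPM (median 7517) in control and from 780 to 16623 (median 6578) in knockout-labelled members, an almost complete overlap. The hypoxia, S phase and oxidative phosphorylation lists had medians of -0.05, 0.03 and 0.06, and of -0.07, 0.05 and 0.08 in the restricted set. In the mitosis list 17 of 21 genes lay below 0, against 56.5% of all genes, with a median of -0.09 and 0 genes past 2-fold. That median was -0.11 in the restricted set and 0.40 among the 23 and 47 members with at most 5% mitochondrial UMIs, so it held no fixed direction.

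Genes of MHC class I presentation, which carry peptides to the surface for T cells to inspect, were higher in melanoma cells from the knockout-labelled hosts. Of 22 genes tested, 20 lay above 0, against 43.5% of all genes, with a median of 0.27. Past 2-fold upward were 3, against 0.311% of all genes, namely H2-D1, Psmb8 and Psmb9. In the restricted set 20 of 21 lay above 0, against 42.3% of all genes there, with a median of 0.30 and 2 past 2-fold. The heavy chain H2-K1 (chr17:33996017-34000347, minus strand, GRCm38) was at 153 CPM in control and 289 CPM in knockout-labelled members, a 1.89-fold difference (1.76 to 2.02). The heavy chain H2-D1 (chr17:35262730-35267499, plus strand) went from 158 to 334 CPM, 2.12-fold (1.99 to 2.26). The light chain B2m (chr2:122147686-122153083, plus strand) went from 415 to 717 CPM, 1.73-fold (1.66 to 1.80). In the restricted set the folds were 1.82 for H2-K1, 2.09 for H2-D1 and 1.69 for B2m. H2-K1 and H2-D1 are near-identical in places, so how reads were divided between them is uncertain, and their sum is the safer value.

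The difference in H2-K1, H2-D1 and B2m was spread over many cells. Their sum ran from 81.3 to 3531 CPM over control members (median 629) and from 257 to 5330 CPM over knockout-labelled members (median 1172). The 2 distributions overlapped, but 153 of 185 knockout-labelled members (82.7%) lay above the control median. Restricted to members with under 0.01% leukocyte UMIs, the medians were 616 and 1043 CPM and 81.0% lay above the control median. With at least 20000 UMIs per cell they were 625 and 1134 CPM. Even so the melanoma cells held far less of these transcripts than the C1q-high barcodes (at least 5000 UMIs, at least 0.2% C1q UMIs), which stood at medians of 4407 and 5430 CPM. The class I list was higher in the knockout-labelled library there too, with a median of 0.33. Of 22 genes, 20 lay above 0, against 45.5% of all genes there, so the rise was not particular to melanoma cells.

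**Figure D2:**
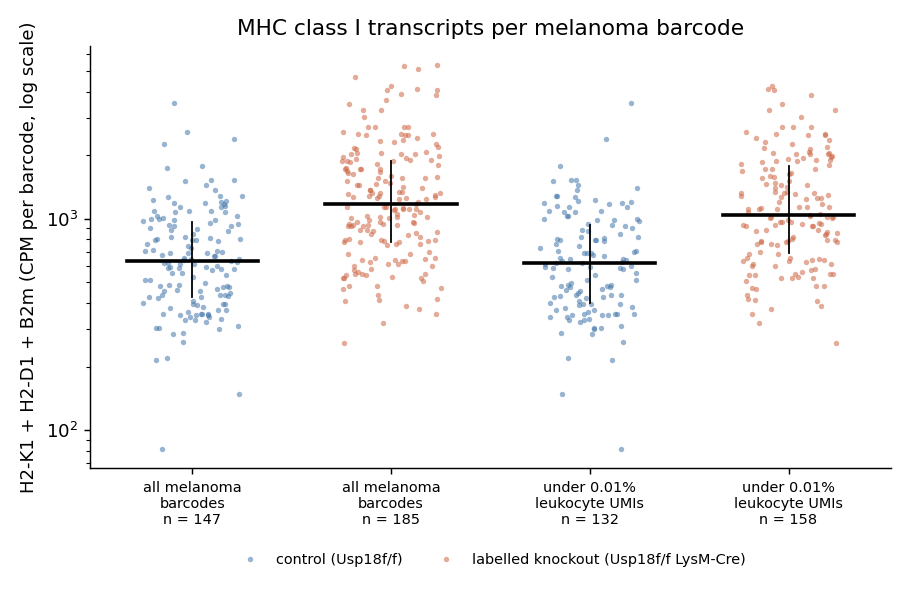
Summed CPM of H2-K1, H2-D1 and B2m (log scale), 1 point per melanoma barcode, by library, for all melanoma barcodes and for those with under 0.01% leukocyte UMIs; thick bars are medians and thin bars the middle 50% of barcodes. The medians are 629 and 1172 CPM and, in the restricted set, 616 and 1043 CPM, with overlapping points.

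The immunoproteasome subunits, which shape the peptides loaded on class I, went the same way. Psmb8 had a UMI in 37 of 147 control and 104 of 185 knockout-labelled members and stood at 12.3 and 33.6 CPM, 2.74-fold (2.19 to 3.46). Psmb9 was at 9.10 and 25.3 CPM, 2.78-fold (2.14 to 3.65). The peptide transporter Tap1 was at 8.37 and 19.1 CPM, 2.29-fold (1.73 to 3.06), while the chaperones Calr (1.17-fold), Canx (0.930-fold) and Pdia3 (1.08-fold) differed by less. In members with under 0.01% leukocyte UMIs, Psmb8 was 2.46-fold, Psmb9 2.70-fold and Tap1 2.10-fold higher. In the C1q-high barcodes Psmb8 was at 337 and 447 CPM and Tap1 at 102 and 135 CPM.

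Genes associated with interferon-gamma, the T cell and NK cell cytokine that induces class I genes and guanylate-binding and immunity-related GTPases, were also higher. All 14 tested lay above 0, against 43.5% of all genes, with a median of 0.59, and 5 passed 2-fold upward: Gbp2, Iigp1, Igtp, Ifi47 and Cxcl10. The GTPase Igtp was at 4.00 CPM in 17 control members with a UMI and 14.9 CPM in 42 knockout-labelled ones. Irgm1, of the same family, was at 18.1 and 34.3 CPM, and the transcription factor Irf1 at 5.95 and 12.3. In the restricted set Igtp was at 3.67 and 14.7 CPM, Irgm1 at 18.5 and 33.7, and Irf1 at 5.71 and 12.3. The log2 ratio of Irgm1 turned from 0.77 to -0.27 when each cell was thinned to 5000 UMIs. Iigp1 rested on 2 and 13 cells. In members with under 0.01% leukocyte UMIs the median was again 0.59, with 13 of 14 genes above 0 and 5 past 2-fold. Of all 11191 genes tested in that set, 10 (0.0894%) were at least 2-fold higher and 4 (0.0357%) lower. The list was also higher in C1q-high barcodes, with a median of 0.42 and 17 of 18 genes above 0, against 45.5% of all genes there.

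Cxcl10, a chemokine for CXCR3-bearing T cells, was at 24.6 CPM in control and 83.6 CPM in knockout-labelled members, 3.40-fold (2.91 to 3.98). It had a UMI in 59 of 147 and 106 of 185 members. Per cell it ran from 0 to 325 CPM (median 0) and from 0 to 3422 CPM (median 17). Leaving out the highest cell of each library, the fold was 2.54. In the restricted set it was at 25.2 and 81.4 CPM, 3.24-fold (2.75 to 3.83), and 2.22-fold without the highest cells. Its log2 ratio of 1.58 was 0.09 among the 23 and 47 members with at most 5% mitochondrial UMIs and 0.56 without the highest doublet scores.

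The broader interferon-stimulated list had a median of 0.39 in melanoma cells, with 31 of 33 genes above 0, against 43.5% of all genes, and 1 past 2-fold (Ly6e). In the C1q-high barcodes of the same libraries the median was 1.02, with 34 of 34 above 0, against 45.5% of all genes there, and 19 past 2-fold upward, against 0.736% (0.175% downward). With 1 library per group the difference between the cell sets was not tested. The antiviral gene Rsad2 was at 38.7 and 50.2 CPM in melanoma cells and at 24.0 and 414 CPM in C1q-high barcodes. The ubiquitin-like Isg15 was at 23.9 and 42.1 CPM in melanoma cells and at 63.8 and 468 CPM in C1q-high barcodes. In the restricted set Rsad2 was at 41.7 and 49.9 CPM, 1.20-fold (1.03 to 1.39), and Isg15 at 25.6 and 30.8 CPM, 1.21-fold (0.995 to 1.46). Neither gene kept one direction over all alternatives. The log2 ratio of Isg15 changed sign, from 0.71 to -0.44, only with 5% of each member total subtracted as free RNA. That of Rsad2 went from 0.34 to -0.33 there and to -0.65 without the highest doublet scores. The Ptprc level of members was 1.25% and 1.98% of that in other barcodes. That is 1 gene, and the share of free RNA in members was not measured. Bst2, which tethers virions, was detected in most members and was at 168 and 230 CPM (1.37-fold, 1.29 to 1.47); in members with under 0.01% leukocyte UMIs it was also 1.37-fold higher. The list median was 0.17 in those members, with 26 of 32 above 0, against 42.3% of all genes, and 0 past 2-fold. Ly6e there was at 4.22 and 4.03 CPM.

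**Figure D3:**
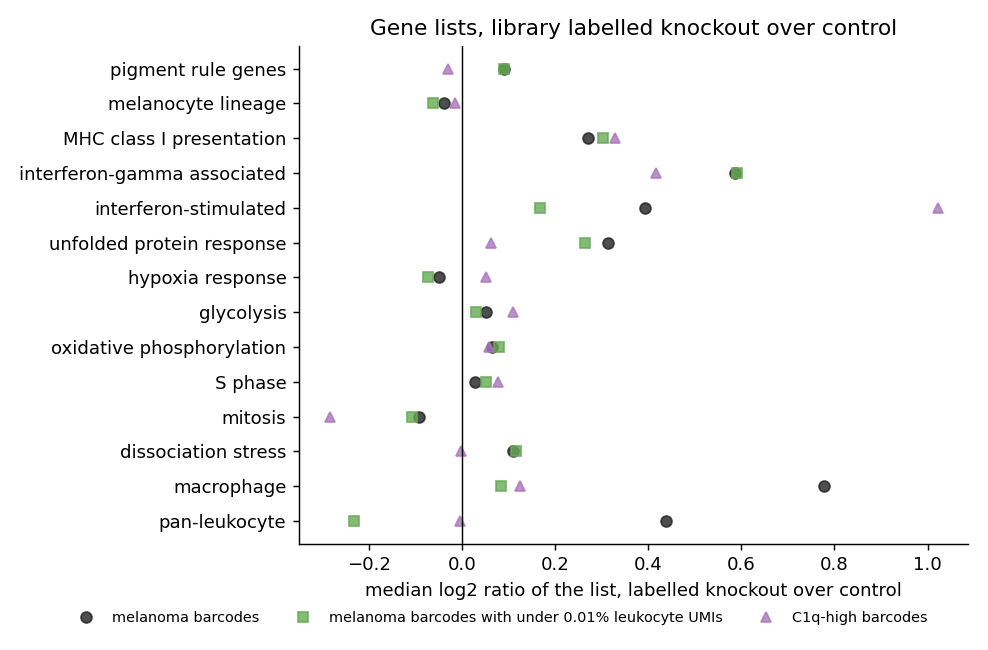
Median log2 ratio of each gene list, knockout-labelled library over control, in all melanoma barcodes (circles), in those with under 0.01% leukocyte UMIs (squares) and in C1q-high barcodes (triangles). The interferon-gamma list sits at 0.59 in both melanoma sets and at 0.42 in C1q-high barcodes, and the class I list at 0.27, 0.30 and 0.33. The interferon-stimulated list sits at 0.39 and 0.17 in the melanoma sets and at 1.02 in C1q-high barcodes.

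Usp18, the gene targeted in the hosts, was at 4.73 and 6.00 CPM in melanoma cells, with a UMI in 9 and 37 members. Leaving out the highest cell of each library moved its ratio from 1.27-fold (0.830 to 1.95) to 4.53-fold. In the restricted set it was at 5.17 and 5.45 CPM. In the C1q-high barcodes it was at 18.4 CPM in control and 66.4 CPM in the knockout-labelled library. That direction goes against the label, and since 3' tags need not lie in the deleted part, they are no check of the deletion. Usp18 is itself in the interferon-stimulated list, of which 34 of 34 genes lay above 0 in C1q-high barcodes, against 45.5% of all genes there. A link between the 2 was not tested. Lyz2, the locus of the Cre, was at 64.8 CPM in control and 0.611 CPM in knockout-labelled melanoma cells, with a UMI in 71 and 5 of them, and at 11.4 and 0.237 CPM in the restricted set.

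Genes whose levels fell in members low in leukocyte transcripts were also found among the largest ratios. In that set Cd74 and Tmsb4x lost their rise, while Ccl2, Ifi27l2a and Xist stayed higher in the knockout-labelled library. Cd74, the invariant chain of MHC class II, was at 47.4 and 143 CPM in all members and at 12.5 and 10.8 CPM in those with under 0.01% leukocyte UMIs. Tmsb4x, an actin-binding peptide, was at 321 and 605 CPM in all members and at 186 and 190 CPM in the restricted set. The chemokine Ccl2 was at 3.76 and 29.6 CPM, and at 2.86 and 8.18 CPM in the restricted set. Ifi27l2a had the highest ratio outside the lists (3.28 and 38.7 CPM), and was at 1.50 and 8.41 CPM in the restricted set. Xist was at 3.15 and 17.9 CPM in members, at 0.544 and 2.73 CPM in the restricted set, and at 362 and 888 CPM in other barcodes. Free or mixed-in RNA as the source of these low levels was not tested. The sex-linked list (Xist and the Y-linked Ddx3y, Eif2s3y, Kdm5d and Uty) had a median of -1.24 in other barcodes with at least 5000 UMIs. Of its 5 genes there, 1 passed 2-fold upward, against 0.644% of all genes, and 4 downward, against 0.130%. In C1q-high barcodes the median was -0.99. A difference in host sex between the pools was not tested and could not be told apart from genotype. The 10 genes lowest in the knockout-labelled library by the naming rule ran from -0.66 (Lars2, 92.5 and 56.9 CPM) to -0.55 (Lmln), and included the phosphatase Ptp4a3 (18.4 and 9.97 CPM) and the imprinted gene Mest (12.4 and 6.21).

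The unfolded protein response list, genes of protein folding stress in the endoplasmic reticulum, had a median of 0.31, with 14 of 15 genes above 0, against 43.5% of all genes, and 0 past 2-fold. The chaperone Hspa5 was at 654 and 826 CPM and the factor Ddit3 at 59.0 and 86.1 CPM. Trib3, a pseudokinase induced by ATF4 and CHOP, was at 15.7 and 28.5 CPM, 1.82-fold (1.47 to 2.26). In C1q-high barcodes the list median was 0.06. In members with under 0.01% leukocyte UMIs it was 0.26, with 15 of 15 above 0, against 42.3% of all genes. There 1 gene passed 2-fold upward, against 0.0894% of all genes, and Trib3 was at 14.0 and 32.1 CPM. Over 16 alternatives the list median ranged from 0.11 to 0.35. The log2 ratio of Trib3, 0.70 in the main values, ranged from 0.05 to 0.97.

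Within each library the melanoma cells varied widely in metabolism and cell cycle genes. The summed hypoxia list, targets of the oxygen-sensing HIF factors, ran from 160 to 13043 CPM over control members (median 1712) and from 327 to 13673 CPM over knockout-labelled members (median 1815). The summed glycolysis list ran from 6677 to 40284 CPM (median 17826) and from 5037 to 41550 CPM (median 19231). The ranges of the 2 libraries overlapped almost completely. Cells high in one list were high in the other. With the 3 genes common to both lists left out, Spearman's rho was 0.87 over 147 control members and 0.85 over 185 knockout-labelled members (Pearson's r 0.80 and 0.80). Cells of a library are not replicates and share library, depth and the division by a common total, so these are descriptions. The hypoxia targets Car9, a carbonic anhydrase of the cell surface, and Vegfa, the vascular growth factor, had coefficients of variation beyond counting error of 1.42 and 1.39, and of 1.65 and 1.46. The median over 4029 genes was 0.313 and 0.351. The cell cycle inhibitor Cdkn1a varied by 1.78 and 1.91; Car9, Vegfa and Cdkn1a were picked after their values were seen.

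**Figure D4:**
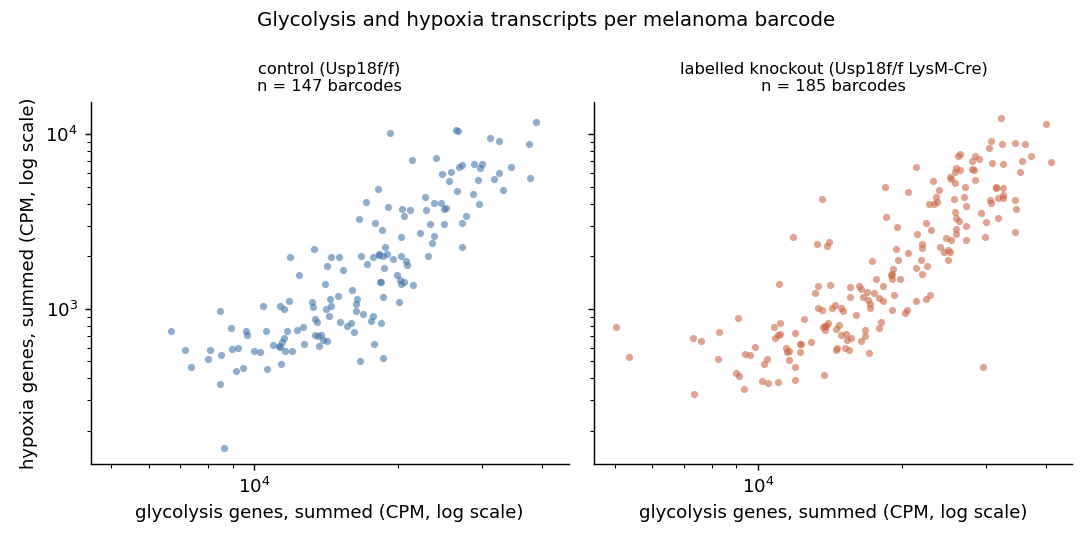
Summed CPM of glycolysis genes against summed CPM of hypoxia genes (both log scales, the 3 common genes left out), 1 point per melanoma barcode, 1 panel per library. Points rise together in both panels, with Spearman's rho of 0.87 and 0.85.

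Compared with the C1q-high barcodes, glycolysis transcripts summed to 18296 and 19920 CPM in members against 6199 and 7026, and hypoxia transcripts to 2582 and 2587 CPM against 1103 and 1150. Gapdh was at 6011 and 7047 CPM and Mif, a secreted cytokine, at 1571 and 1661 CPM. For cell cycle genes each barcode was thinned to 5000 UMIs to equal the depths. At least 3 S phase UMIs were then found in 72.8% (64.8 to 79.8) of control and 69.2% (62.0 to 75.8) of knockout-labelled members, against 40.9% and 45.0% of C1q-high barcodes. For mitosis genes the shares were 67.3% (59.1 to 74.8) and 61.1% (53.7 to 68.1), against 35.7% and 36.8%. Unthinned, 99.3% and 95.1% of members passed for S phase and 91.8% and 86.5% for mitosis. The exact binomial intervals of the 2 libraries overlapped for both lists. They take cells as the units, so with 1 library per group their overlap does not compare the hosts. S phase and mitosis sums rose together over members (Spearman's rho 0.61 and 0.62, Pearson's r 0.27 and 0.26). Lineage genes outside the rule fell as mitosis genes rose (rho -0.34 and -0.28, r -0.29 and -0.14), and hypoxia fell as S phase rose (rho -0.34 and -0.44, r -0.31 and -0.37). S phase sums also rose with depth (rho 0.49 and 0.41), as did mitosis sums (0.34 and 0.23). Hypoxia sums fell with depth (rho -0.24 and -0.28), as did lineage sums (-0.12 and -0.18).

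The melanoma cells also stood apart by chromosome. For each gene with at least 20 UMIs in both sets, the ratio of members over all other barcodes of the same library was taken, and chromosome medians were set against the median of all genes. Chromosome 6 lay 0.61 above it in the control library (490 genes) and 0.61 above it in the knockout-labelled library (517 genes), and 72.7% and 73.3% of its genes exceeded the median of all genes. Without the listed genes, among which Mitf, Gpnmb, a melanosome glycoprotein, and Met, a growth factor receptor, lie on this chromosome, the values were 0.60 and 0.59. Split into 4 runs of genes along the chromosome, the medians lay from 0.59 to 0.70 in the control library and from 0.45 to 0.65 in the knockout-labelled library, so no single stretch carried the value. Against C1q-high barcodes alone, chromosome 6 lay 0.69 and 0.67 above. Chromosome 12 followed at 0.26 and 0.23. Chromosomes 14 and 18 were the lowest, both at -0.31 in the control and -0.26 in the knockout-labelled library, and chromosomes 10, 19 and 4 lay between -0.23 and -0.18. Expression differs between cell types for many reasons, and DNA copy number was not measured.

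**Figure D5:**
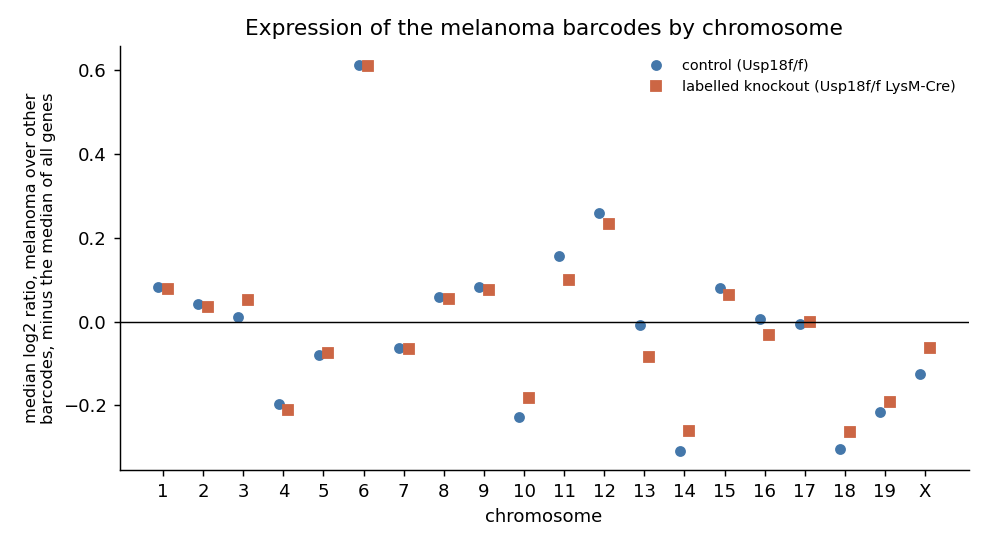
Median log2 ratio of melanoma over other barcodes per chromosome, minus the median of all genes, for the control (circles) and knockout-labelled (squares) libraries. Chromosome 6 lies at 0.61 in both, and the order of the chromosomes is similar in the 2 libraries.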

How the data were processed

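The authors deposited raw UMI counts per gene and barcode for 2 libraries, made with Cell Ranger 3.0.1 on mm10, per the submitters' processing notes, from 10x Genomics 3' v3 chemistry, per the labels. No normalization of the deposited counts was found. The control library held 43412346 UMIs in 7754 barcodes and the knockout-labelled library 48167632 in 6063. Barcodes were kept with at least 200 genes and at most 10% mitochondrial UMIs, and the members were found by the rule given above. The members and gene lists were chosen with earlier results of these data known.

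UMIs were summed over members per library (8242118 and 9827207 UMIs) and given as CPM. Ratios used a pseudocount of 5 CPM and genes with at least 20 UMIs over both libraries. CPM carry exact Poisson intervals, ratios exact conditional intervals and shares exact Clopper-Pearson intervals, at 95%, all of counting error only. For 0 UMIs the limit is 3 counts of the total. Each group is 1 library, so no p-value was computed, and cells were not used as replicates. Beyond the lists, genes were named by rule: the 15 of highest level, the 15 highest over other barcodes, and the 10 highest and 10 lowest between libraries, the last 2 with at least 50 UMIs, a UMI in 10% of members and no cell above 20% of the UMIs. Doublets were not removed for the main values; removing the highest Scrublet scores was an alternative. Positions are from GENCODE M21 (27645 of 27998 identifiers matched) and promoter windows from RefSeq, both GRCm38. Ratios and intervals were tested on simulated data. Python 3.11.15, numpy 2.4.6, scipy 1.17.1, pandas 2.3.3 and scanpy 1.11.5 were used.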

Additional observations from a re-analysis of the deposited data

How the results depend on the processing

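No paired analysis was possible because each group is 1 library. Of 851 alternative log2 ratios, 54 went to 0 or changed sign: 13 of genes past 2-fold, 19 of 9 genes not past it, and 22 of the medians of 11 lists. Among the lists, with at most 5% mitochondrial UMIs mitosis went to 0.40; with each cell thinned dedifferentiation went to 0.31, S phase to -0.07 and oxidative phosphorylation to -0.004; with the mean of per-cell CPM hypoxia went to 0.04; and the pan-leukocyte list went to -0.23 in members with under 0.01% leukocyte UMIs. Cd52 and Coro1a, in the filter of that set, are also in the pan-leukocyte list. Subtracting 5% of each member total took the interferon receptor list to -0.03, and the chemokine, checkpoint, macrophage and pan-leukocyte lists to 0. Counts below 0 after a subtraction were set to 0. A ratio of exactly 0 after a subtraction can therefore mean that no counts were left in either library, and it shows no direction. Among the genes, Ifit1 (-0.46), Rsad2 (-0.65) and Cd274 (-0.07) were lower without the highest Scrublet scores, Calr (-0.03) with at most 5% mitochondrial UMIs, Irgm1 (-0.27) after thinning, and Isg15 (-0.44) and Usp18 (-0.34) after the 5% subtraction, which took Tmsb4x to 0. Mitf, at -0.003, lay on either side of 0. In members with under 0.01% leukocyte UMIs, a setting chosen after seeing the data, Ly6e went to -0.029 and Cd74 to -0.15. Subtracting 5% of each member total as free RNA took Ccl2, Ccl7, Ly6e, Cd74, Ifi27l2a, Xist and C1qb to 0 and Lyz2 to 0.011; subtracting the profile of other barcodes scaled to Ptprc, also chosen after seeing the data, took Ccl2, Ccl7 and C1qb to 0. The interferon-stimulated list had a median of 0.11 without the highest Scrublet scores and 0.17 in members with under 0.01% leukocyte UMIs, and 0 after the 5% subtraction. The MHC class I list kept medians from 0.22 to 0.54 over 16 alternatives, the highest after thinning to 5000 UMIs, where fewer genes were tested. The interferon-gamma list ranged from 0.25 to 1.14. With at most 5% mitochondrial UMIs the shares of melanoma barcodes were 0.690% and 1.28% and the lineage median -0.19; with at least 20000 UMIs the knockout-labelled share was 2.64%. Ptprc was at 8.65 and 6.32 CPM without the highest Scrublet scores, at 8.50 and 4.97 CPM without members of at least 0.05% leukocyte UMIs, and at 21.6 CPM in the knockout-labelled library after thinning. Without thinning, the cell cycle shares were 99.3% and 95.1% for S phase and 91.8% and 86.5% for mitosis. Depth limits low genes, since 0 UMIs allows 0.364 or 0.305 CPM.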
